A study of Mus musculus with 31 samples.

Results

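The cathepsins are proteases that work mainly in the acid interior of lysosomes. The transcripts of 9 of them, Ctsa, Ctsb, Ctsc, Ctsd, Ctsh, Ctsl, Ctss, Ctsw and Ctsz, were followed through 3 RNA sequencing tables of mouse T helper 17 (Th17) cells, which are CD4 T cells that make interleukin 17. The genes were taken by name, 9 of the 31053 genes that each table lists. In 2 of the experiments, naive T cells that carry the transgenic T cell receptor 2D2, specific for a myelin protein, came from mice of a WT (wild-type) or cKO (conditional knockout) genotype and became homeostatic Th17 cells in culture. They were then transferred into Rag1 KO mice, and about 2000 transferred cells per library were sorted from the central nervous system (CNS) at the peak of experimental autoimmune encephalomyelitis (EAE), an autoimmune inflammation of brain and spinal cord. There were 4 WT and 6 cKO libraries for Cyp11a1, the enzyme that opens glucocorticoid synthesis, and 5 WT and 4 cKO libraries for GR, the glucocorticoid receptor encoded by Nr3c1. In the culture experiment, inflammatory Th17 cells (Th17Inf) of WT mice, originally from spleen and dLN, were kept for 2 days without addition (control), with dexamethasone (Dex), a synthetic glucocorticoid, with TGF-β1, a cytokine, or with the pair, and each of these 4 groups had 3 libraries of about 2000 live cells.

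All mice were labelled C57/B6. The WT and cKO cells of the CNS experiments therefore shared the 2D2 receptor, the homeostatic Th17 culture and Rag1 KO hosts, which lack T and B cells of their own but keep their myeloid cells. The Cre line behind each cKO is not given in the sources used here. Separate recipients or separate cultures as the source of the libraries are not stated either, so the p-values measure the spread among libraries, which may be technical.

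Cathepsins are made as inactive precursors, sorted to endosomes and lysosomes and activated there by cleavage. Most of them use a catalytic cysteine, while cathepsin D is an aspartic protease and cathepsin A a serine carboxypeptidase. In immune cells they are best known from macrophages, dendritic cells and microglia, where they degrade engulfed protein and prepare it for class II antigen presentation, and from the granules of killer lymphocytes.

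For the 7 cysteine cathepsins, the coding stretch around the catalytic cysteine is shown, since it marks what these genes share and sets them apart from Ctsa and Ctsd. Each run is 36 bases from a GENCODE M21 transcript of the gene, on the coding strand, and the capitals are the codon of the cysteine.
Ctsb: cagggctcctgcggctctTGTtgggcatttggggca
Ctsl: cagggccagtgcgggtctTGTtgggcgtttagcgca
Ctss: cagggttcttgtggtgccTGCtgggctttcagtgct
Ctsh: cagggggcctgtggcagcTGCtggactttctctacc
Ctsc: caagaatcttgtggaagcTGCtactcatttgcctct
Ctsz: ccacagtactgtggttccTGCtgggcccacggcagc
Ctsw: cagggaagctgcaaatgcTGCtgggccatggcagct
The stretches of Ctsb and Ctsl were the most alike, with 29 of 36 bases identical. Ctsw, whose transcript responded most in culture, matched each of the other 6 stretches at 16 to 21 bases.

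The genes lie apart from each other in the mm10 assembly (GRCm38). On the plus strand are Ctsa at chr2:164832873-164841032, Ctsb at chr14:63122462-63145923, Ctsc at chr7:88278085-88310888, Ctsh at chr9:90054152-90076089 and Ctss at chr3:95526786-95556403. On the minus strand are Ctsd at chr7:142375911-142388038, Ctsl at chr13:64359337-64370890, Ctsw at chr19:5465043-5468507 and Ctsz at chr2:174427493-174439039. The library protocol keeps no strand, so reads from exons shared with another gene cannot be told apart. Such stretches join Ctsa to Pltp (495 bases) and Neurl2 (324), Ctsb to Fdft1 (774), Ctsl to Gm47123 (1742), Ctsd to Gm49369 (670) and Ctsz to Nelfcd (10). Fdft1 and Nelfcd were tested in every comparison of groups, Pltp only in the CNS experiments, Neurl2 only in the GR and culture experiments, Gm49369 only in culture and Gm47123 in none. No test of these neighbours between groups passed, while Pltp passed in the GR slope described further on (0.99 ± 0.30 log2 CPM per doubling, edgeR adjusted p = 0.0415). In the Cyp11a1 experiment Gm49369, not tested there, was at 2.14 ± 2.64 CPM in WT (SD, n = 4) and 1.25 ± 1.45 CPM in cKO (n = 6), beside 443 ± 13.2 and 643 ± 22.1 CPM of Ctsd. Ctsw, Ctsc, Ctsh and Ctss shared no exon base with another gene.

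Counts per library summed to between 2769203 and 5623305. At that depth 3 counts, taken as the smallest level a library could show, were worth 0.534 to 1.08 CPM (counts scaled to a common library size of 1000000). This range was computed from the raw totals, while the gene levels given as CPM also carry edgeR's TMM factor. All 14 T cell markers of a fixed list were detected in every group, and their summed levels were 34101 to 39931 CPM in the Cyp11a1 experiment, 16132 to 21561 CPM in the GR experiment and 3672 to 4012 CPM in culture. Markers of myeloid cells and microglia, 21 genes, summed to 304 to 751 CPM, 3537 to 9375 CPM and 3.88 to 10.9 CPM in the same order. Most of the T cell sum in Cyp11a1 WT libraries came from the T cell receptor gene Trbc2, at 26887 ± 2146 CPM (SD, n = 4), with Trac next at 5384 ± 403 CPM. The targeted gene checked the labels only in part. Cyp11a1 had 0 counts in all 4 WT and 5 of 6 cKO libraries and 4 counts in the other cKO library, so the Cyp11a1 labels could not be checked at this depth. Nr3c1 stood at 12.9 to 18.8 CPM in GR WT and 6.73 to 10.2 CPM in GR cKO libraries, which did not overlap, although its difference did not pass the test over all genes (log2 fold change −0.83 ± 0.18, edgeR adjusted p = 0.58).

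Per length, the order of the 9 transcripts differed between the experiments. Levels per length are given as RPKM, the CPM divided by kilobases of coding transcript, and the 3 tables were scaled separately, so no test joins them. In control cultures Ctsz, which encodes a carboxypeptidase, led with 224 ± 9.36 RPKM (SD, n = 3), 59.4% of the summed RPKM of the 9 genes. Ctsd and Ctsb followed at 46.4 ± 2.00 and 45.2 ± 4.02 RPKM and did not differ beyond their spread, and Ctss had 29.0 ± 3.10 RPKM. Ctsa at 18.4 ± 0.21 RPKM, Ctsc at 6.42 ± 1.17, Ctsw at 5.24 ± 2.45 and Ctsl at 2.59 ± 0.57 came next, and Ctsc and Ctsw lay within each other's spread.

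In Cyp11a1 WT cells from the CNS the first place belonged to Ctsw, with 271 ± 20.3 RPKM (SD, n = 4) and 32.9% of the sum. Ctsd had 219 ± 6.51 RPKM and Ctss 150 ± 21.6 RPKM. Ctsz was the fifth there, with 50.5 ± 1.28 RPKM and 6.12% of the sum. In GR WT cells Ctss led with 1249 ± 472 RPKM (SD, n = 5), next to Ctsd with 996 ± 510 RPKM, and these did not differ beyond their spread, while Ctsw was the fifth with 185 ± 43.2 RPKM. Since the tables were scaled separately, these levels only stand side by side, and the part of myeloid RNA in them was not tested.

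**Figure D1:**
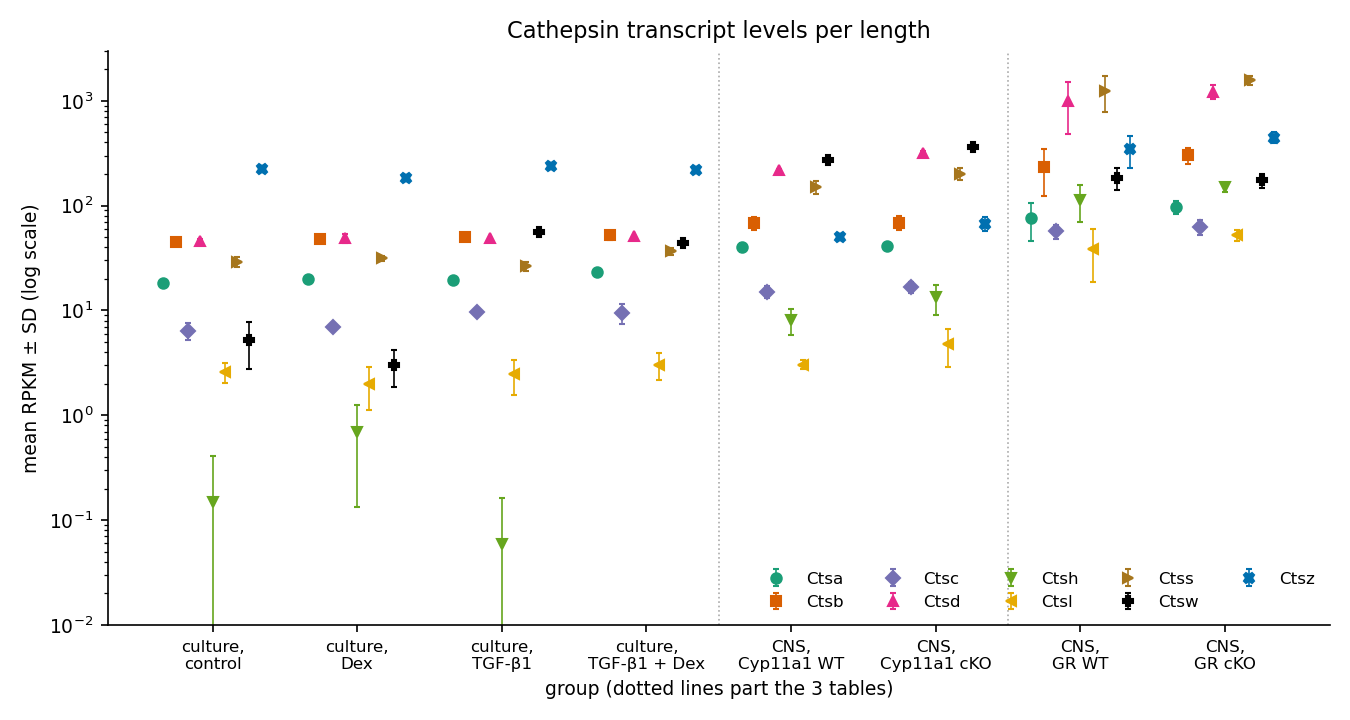
Mean RPKM ± SD of the 9 cathepsin transcripts on a log axis, for the 4 culture groups (3 libraries each), the Cyp11a1 groups (4 WT, 6 cKO) and the GR groups (5 WT, 4 cKO), with dotted lines between separately scaled tables. Ctsz leads in all culture groups, Ctsw in the Cyp11a1 groups and Ctss in the GR groups. Ctsh at 0 with TGF-β1 + Dex is not drawn, and lower SD bars that pass the bottom of the axis are cut there.

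Ctsh, an aminopeptidase known from lung and macrophages, was close to absent in culture. Its counts were 0, 0 and 3 in the control libraries and 7, 2 and 2 with Dex. They were 0, 1 and 0 with TGF-β1 and 0 in all 3 libraries with both. These values lie at or near the level of 3 counts, so Ctsh was filtered out there and 8 of the 9 transcripts were tested in culture. All 9 were tested in both CNS experiments.

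The culture experiment asked how a glucocorticoid and TGF-β1, alone and together, act on inflammatory Th17 cells. TGF-β1 raised Ctsw 10.9-fold and left no other cathepsin past the threshold. Ctsw encodes cathepsin W, a papain-type protease known mainly from natural killer (NK) cells and CD8 T cells. It stood at 6.62, 8.96 and 3.15 CPM in the control libraries and at 64.3, 66.8 and 70.2 CPM with TGF-β1. The lowest TGF-β1 library was far above the highest control library. The log2 fold change was 3.45 ± 0.24 (SE), with an adjusted p of 3.51e-06 from edgeR's quasi-likelihood test over the 10332 genes tested, and leaving out each library in turn gave 3.08 to 3.85. Of all tested genes, 3.3% passed the threshold of 0.05 in this comparison and 1.94% were higher, against 1 of 8 cathepsins. Per length, Ctsw moved from the seventh place among the cathepsins to the second, at 56.3 ± 2.49 RPKM (n = 3).

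Dex did not remove this response. With TGF-β1 + Dex, Ctsw was at 53.8, 53.6 and 48.9 CPM, and with Dex alone at 2.46, 5.18 and 3.24 CPM. The libraries with both agents lay below all TGF-β1 libraries and above all libraries without TGF-β1. Against Dex alone the difference was 3.81 ± 0.26 on the log2 scale (14.0-fold, edgeR adjusted p = 5.32e-06), and against the control it was 3.08 ± 0.24 (8.44-fold, edgeR adjusted p = 6.3e-06). The difference from TGF-β1 alone, −0.37 ± 0.18, did not pass (edgeR adjusted p = 0.553), and nor did that of Dex from the control, −0.73 ± 0.35 (edgeR adjusted p = 0.407). The interaction of the agents on Ctsw was 0.36 ± 0.40. These comparisons share libraries and are not independent. In counts, Ctsw had 8 to 33 per library without TGF-β1 and 154 to 233 with it.

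Other markers of NK and CD8 T cells were not higher in sum in the TGF-β1 libraries. The summed level of 10 such markers was 22.5 to 23.3 CPM in the control libraries, 22.7 to 28.9 CPM with Dex, 10.5 to 12.4 CPM with TGF-β1 and 17.3 to 27.5 CPM with both. Of the 10, 8 had a count in the control group, 5 with Dex, 7 with TGF-β1 and 5 with both, and 2 were tested. Ncr1 was at 0 in every culture library. Myeloid markers were low too, with a sum of 3.88 to 10.9 CPM per library. Of the 21, 6 to 10 had a count in a given group and 2 were tested, while Itgam, Csf1r, Adgre1, C1qa, Trem2, Mpeg1 and Cybb were at 0 in all 4 groups.

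**Figure D2:**
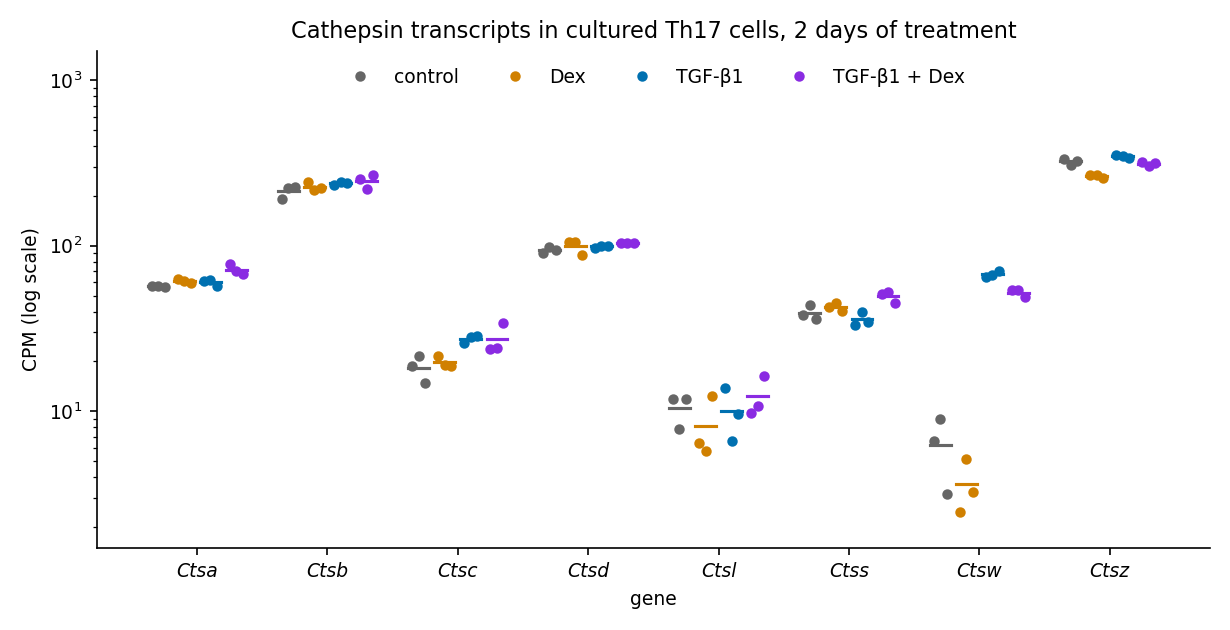
CPM on a log axis of the 8 cathepsin transcripts tested in cultured Th17 cells, with 1 point per library, a bar at the mean and 3 libraries in each of the groups control, Dex, TGF-β1 and TGF-β1 + Dex. Ctsw lies between 2.46 and 8.96 CPM without TGF-β1 and between 48.9 and 70.2 CPM with it, and Ctsz is lowest with Dex.

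Ctsz, the most abundant cathepsin of the cultures per length, was the member that fell with Dex. Its levels were 334, 308 and 326 CPM in the control libraries and 268, 266 and 255 CPM with Dex. All Dex libraries lay below all control libraries. The log2 fold change was −0.30 ± 0.05 (edgeR adjusted p = 0.0110), a level 0.815 times that of the control. In this comparison 1.82% of all genes passed and 0.9% were lower, against 1 of 8 cathepsins. Groups did not overlap for 2 of the 8, Ctsz and Ctsa, against 19.3% of all genes. The call was at the edge of the threshold, since without control library 1 the edgeR adjusted p was 0.0525 and without control library 3 it was 0.0580.

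With TGF-β1 present the level of Ctsz was near that of the control. It was 353, 347 and 338 CPM with TGF-β1 and 319, 302 and 317 CPM with both agents. The group with both overlapped the control, and the difference was −0.05 ± 0.05 (edgeR adjusted p = 0.709). Against Dex alone the group with both was higher by 0.25 ± 0.05 on the log2 scale (edgeR adjusted p = 0.0208). That call was lost without Dex library 2 (edgeR adjusted p = 0.0538), Dex library 3 (0.0908), TGF-β1 + Dex library 1 (0.0784) or TGF-β1 + Dex library 3 (0.0768). The interaction, 0.15 ± 0.07, did not pass (edgeR adjusted p = 0.909). A difference between the action of Dex with and without TGF-β1 was therefore not shown.

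Ctsa, the serine carboxypeptidase that also holds the lysosomal enzymes Neu1 and Glb1 in a protective complex, was highest with both agents. Its levels were 57.1, 57.0 and 56.0 CPM in the control libraries, 62.7, 61.3 and 59.6 CPM with Dex and 60.9, 62.2 and 57.0 CPM with TGF-β1. With both it was at 77.5, 70.0 and 67.1 CPM. The libraries with both agents lay above all others. The difference from the control was 0.33 ± 0.08 on the log2 scale (1.26-fold, edgeR adjusted p = 0.0267). The call was lost in 5 of the 6 fits that left out a library, with edgeR adjusted p = 0.0635, 0.0698 and 0.0853 without control library 1, 2 or 3 and 0.0979 and 0.0548 without TGF-β1 + Dex library 1 or 2. Of its partners, Neu1 was at 35.7 ± 4.96 CPM in the control and 38.1 ± 0.69 CPM with both agents, and Glb1 at 39.6 ± 1.02 and 45.3 ± 6.71 CPM (n = 3), and neither passed the test in any comparison.

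Ctsa and Ctsw were the 2 of 8 cathepsins past the threshold with both agents against the control, where 6.25% of all genes passed and 3.12% were higher. Groups did not overlap for 5 of the 8, all higher, against 11.5% of all genes higher and 23.6% in either direction. The other cathepsins of that set were Ctsc, Ctsd and Ctss. Ctsc, the dipeptidyl peptidase that activates granzymes, was at 18.8, 21.4 and 14.8 CPM in the control and 23.7, 24.0 and 34.0 CPM with both. Its groups did not overlap, but the difference of 0.60 ± 0.17 missed the threshold (edgeR adjusted p = 0.0596). With TGF-β1 alone Ctsc was at 26.0, 27.9 and 28.6 CPM, again above every control library (0.59 ± 0.17, edgeR adjusted p = 0.098). The call for Ctsc with both agents was gained without control library 2, at an edgeR adjusted p of 0.0489. It was also gained on all libraries with a low-count filter at a mean count of 50 (0.61 ± 0.17, edgeR adjusted p = 0.0360).

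Ctss, the endopeptidase that trims the invariant chain of class II molecules in antigen presenting cells, was at 38.0, 44.0 and 35.9 CPM in the control and 42.7, 45.2 and 40.5 CPM with Dex. It was at 33.1, 40.0 and 34.7 CPM with TGF-β1 and 50.8, 52.6 and 45.1 CPM with both. The libraries with both agents were above all TGF-β1 libraries, yet the difference of 0.45 ± 0.11 did not pass (edgeR adjusted p = 0.127). None of the 8 cathepsins passed between TGF-β1 + Dex and TGF-β1, where edgeR called 0.532% of all genes, and 3 of them, Ctsa, Ctss and Ctsz, had an unadjusted p under 0.05, against 9.84% of all genes. In that comparison groups did not overlap for 5 of the 8 cathepsins and for 15.2% of all genes. Against Dex alone, 2 of the 8, Ctsw and Ctsz, passed with both agents, where edgeR called 2.62% of all genes and 1.46% as higher, and groups did not overlap for 4 of the 8, all higher, against 9.41% of all genes higher and 18.4% in either direction.

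The remaining endopeptidases did not pass in any culture comparison. Ctsd, the aspartic protease, ranged from 88.1 to 105 CPM over the 12 libraries, and Ctsb, an abundant cysteine protease of lysosomes, from 192 to 268 CPM. Ctsl, which processes the invariant chain in thymic epithelium, was low, at 5.72 to 16.4 CPM, and no group of it stood apart. With TGF-β1 alone, groups did not overlap with the control for 4 of the 8 cathepsins (Ctsb, Ctsc, Ctsw and Ctsz, all higher), against 10.5% of all genes higher and 21% in either direction. In the interaction fit 0 of 8 cathepsins and 0 of 10332 genes passed with edgeR, while 5.34% of genes had an unadjusted p under 0.05 and DESeq2 called 6 genes. The interaction terms of the 8 ran from −0.11 for Ctsc to 0.72 for Ctsl. The summed level of all 9 transcripts was 749 to 769 CPM in the control, 700 to 751 CPM with Dex, 878 to 892 CPM with TGF-β1 and 837 to 900 CPM with both.

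**Figure D3:**
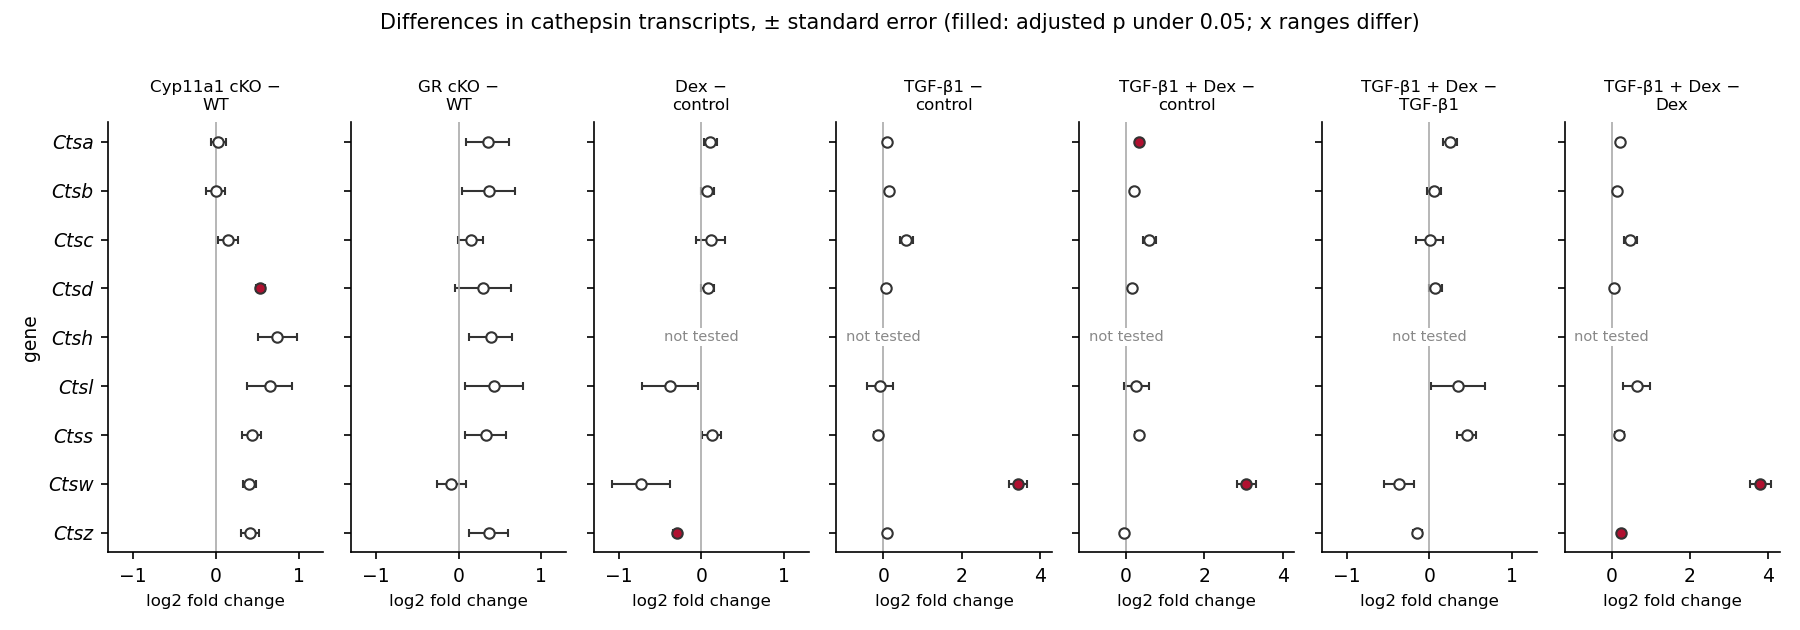
Log2 fold changes ± SE from edgeR of the 9 cathepsin transcripts (rows) in the 7 comparisons of groups (panels, whose x ranges differ), with filled points at an adjusted p under 0.05. The filled points are Ctsd in Cyp11a1 cKO, Ctsz with Dex, Ctsw in the 3 comparisons that add TGF-β1, Ctsa with both agents against the control and Ctsz with both against Dex.

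Genes that act with the cathepsins were counted from lists chosen, like the members, with earlier results of these data known. Among other cathepsins and legumain, 4 of 12 listed genes were tested in culture and only Ctsf, a papain-type cathepsin, passed. It was at 5.39 ± 0.55 CPM in the control, 7.39 ± 0.80 with Dex, 11.3 ± 0.53 with TGF-β1 and 13.0 ± 1.19 with both (n = 3). Its difference from the control was 1.05 ± 0.17 with TGF-β1 (edgeR adjusted p = 0.00368) and 1.26 ± 0.17 with both (0.000511).

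Of the cathepsin and granzyme inhibitors, 4 of 7 tested passed with TGF-β1, in both directions, against 3.3% of all genes. Ctla2a and Ctla2b, mouse inhibitors that resemble a cathepsin propeptide, rose. Ctla2a went from 258 ± 13.6 CPM in the control to 471 ± 38.2 with Dex, 810 ± 24.2 with TGF-β1 and 1176 ± 128 with both (n = 3), with log2 fold changes of 0.87 ± 0.08, 1.65 ± 0.08 and 2.19 ± 0.08 (edgeR adjusted p = 9.84e-05, 1.82e-07 and 1.92e-08). Cst7, which encodes cystatin F, an inhibitor of cathepsin C, fell from 258 ± 15.6 to 118 ± 2.57 CPM with TGF-β1 (−1.12 ± 0.07, edgeR adjusted p = 1.64e-06). Serpinb9, an inhibitor of granzyme B, fell with TGF-β1 as well (edgeR adjusted p = 0.00112), from 6.70 ± 1.95 to 0.715 ± 0.29 CPM, which is at the level of 3 counts.

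Of the granule proteases that cathepsin C activates, 3 of 8 were tested in culture and Gzmb passed. It was at 653 ± 59.7 CPM in the control, 215 ± 81.0 with TGF-β1 and 99.8 ± 28.3 with both (n = 3), which on the log2 scale was −1.59 ± 0.26 with TGF-β1 and −2.71 ± 0.27 with both (edgeR adjusted p = 0.00612 and 0.000155).

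Of 35 tested lysosomal hydrolases and cofactors, 0 passed with Dex (1.82% of all genes) and 1 with TGF-β1 (3.3% of all genes), the sterol carrier Npc2 (−0.39 ± 0.05, edgeR adjusted p = 0.0012). With both agents, where 6.25% of all genes passed, 3 did, Npc2 lower (−0.58 ± 0.05) and Psap, which encodes the saposins, and Arsa, an arylsulfatase, higher (0.56 ± 0.09 and 0.62 ± 0.15, edgeR adjusted p = 0.00228 and 0.0299). The median log2 fold change of the 35 with both agents was 0.15, against 0.29 for the cathepsins and 0.00 for all genes. None of the 26 genes of the lysosomal membrane and proton pump passed in any culture comparison. Of class II genes, H2-DMa, which loads peptides, was lower with both agents than in the control (−0.41 ± 0.08, edgeR adjusted p = 0.0118).

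The Cyp11a1 experiment compared CNS Th17 cells of WT and Cyp11a1 cKO origin. Ctsd was the only cathepsin past the threshold, and higher in the cKO. It was at 432, 442, 436 and 461 CPM in the WT libraries, and in the 6 cKO libraries at 621 CPM at the lowest, 637 at the median and 674 at the highest. The lowest cKO library was well above the highest WT library. The log2 fold change was 0.54 ± 0.06 (edgeR adjusted p = 0.000753), and leaving out each library in turn kept it at 0.53 to 0.56 with adjusted p of 0.00102 to 0.00728. In this comparison 0.178% of the 10125 tested genes passed, and 0.138% were higher, against 1 of 9 cathepsins.

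The promoter of Ctsd is shown because Ctsd is the cathepsin that passed between the genotypes. The run is the 250 bases before its start in the RefSeq table of GRCm38.p6, chr7:142387828-142388077 on the minus strand. The GENCODE gene record given above starts farther upstream than the RefSeq start, so most of the run, with the later capitals but not the earlier ones, lies inside that record. The capitals mark the letters CACGTG, an E-box of the kind that regulators of lysosomal genes such as TFEB bind. A longer motif with CACGTG at its centre, named CLEAR, was searched as well, in the windows described below. CLEAR had 0 matches in Ctsd and in every other cathepsin window, and 0.326% of the 32851 windows hold it. The capitals thus mark the shorter letters only, and binding to them was not tested.
Ctsd: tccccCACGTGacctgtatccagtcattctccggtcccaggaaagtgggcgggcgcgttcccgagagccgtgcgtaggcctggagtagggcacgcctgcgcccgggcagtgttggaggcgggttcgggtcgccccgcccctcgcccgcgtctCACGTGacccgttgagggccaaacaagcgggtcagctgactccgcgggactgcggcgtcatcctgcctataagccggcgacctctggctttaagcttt
CACGTG reads the same on both strands. It was searched in windows of 300 bases, 250 before to 50 after each start, and 7.15% of 32851 such windows hold it. The table held windows for 6 of the 9 cathepsins. CACGTG was in those of Ctsd (2 copies), Ctsl (1) and 1 of the 2 windows of Ctsa (2 copies), and not in those of Ctsz, Ctss and Ctsc. Of 11 listed regulators of lysosomal genes and sorting receptors, 7 were tested between the Cyp11a1 genotypes and 0 passed.

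Ctsw was the next in rank. It was at 329, 304, 355 and 303 CPM in the WT libraries and at 388 CPM at the lowest, 433 at the median and 474 at the highest in the cKO libraries. The groups did not overlap. Its difference of 0.41 ± 0.08 just missed the threshold with edgeR (adjusted p = 0.057), while DESeq2 gave an adjusted p of 0.000666. Ctss was at 216, 203, 162 and 229 CPM in WT and 239 to 316 CPM in cKO (0.43 ± 0.11, edgeR adjusted p = 0.204). Ctsz was at 75.2, 72.7, 72.1 and 70.9 CPM in WT and 78.4 to 121 CPM in cKO (0.41 ± 0.11, edgeR adjusted p = 0.232).

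The groups thus did not overlap for 4 of the 9 cathepsins, all higher in the cKO, against 0.998% of all genes higher and 1.98% in either direction. The median log2 fold change was 0.41 over the 9 cathepsins and 0.00 over all tested genes. Ctsh and Ctsl had similar shifts with wide spread, 0.74 ± 0.24 and 0.65 ± 0.27 (edgeR adjusted p = 0.374 and 0.565), and their groups overlapped. Ctsb (−0.00 ± 0.12), Ctsa (0.03 ± 0.09) and Ctsc (0.15 ± 0.12) overlapped as well. The 9 transcripts summed to 1472 to 1631 CPM in WT and 1835 to 2169 CPM in cKO libraries.

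**Figure D4:**
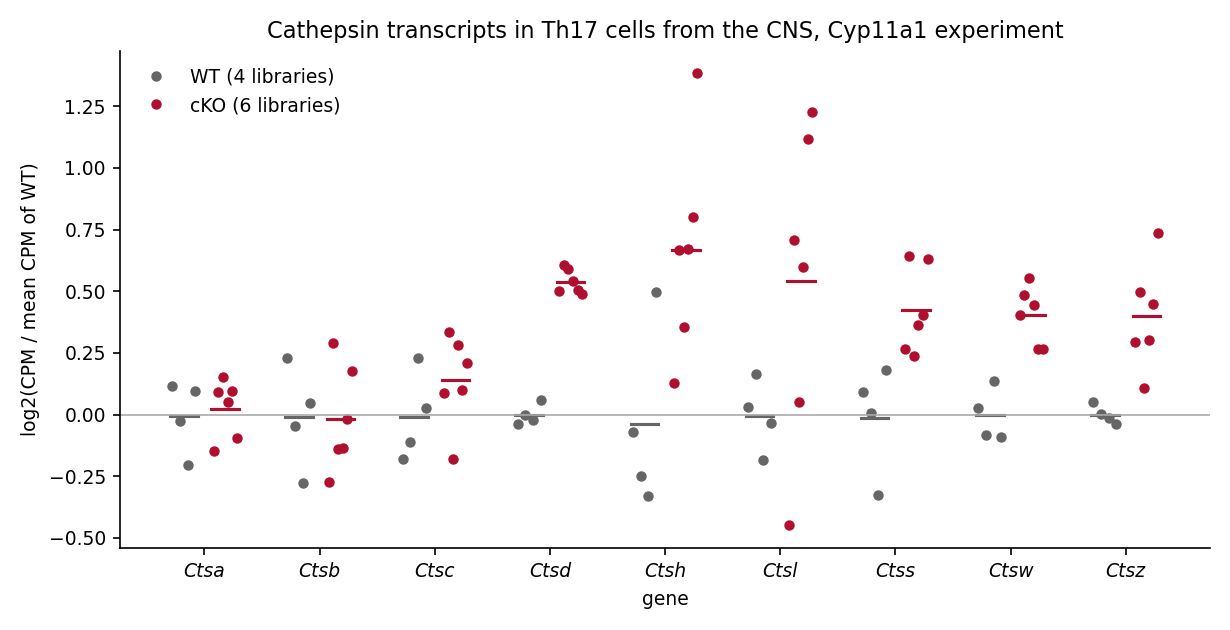
Log2 of CPM over the mean CPM of WT for the 9 cathepsin transcripts in CNS Th17 cells, with 1 point per library (4 WT, 6 cKO) and bars at the means of the log2 values. The points of WT and cKO do not overlap for Ctsd, Ctss, Ctsw and Ctsz, and Ctsd has the tightest groups of these in the cKO.

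Myeloid markers moved with this genotype. Their sum was 304 to 335 CPM in WT and 421 to 751 CPM in cKO libraries, without overlap. All 21 markers were detected in both groups, and 3 of the 19 tested passed as higher, against 0.138% of all genes. Genotype and myeloid RNA therefore cannot be told apart in the groups, and in bulk libraries fewer cells of a type and less RNA per cell cannot be told apart either. A fit with genotype and the myeloid sum gave a slope for each member within the genotypes, and edgeR called no gene in it (0 of 10125). Per doubling of the sum the slope was 1.49 ± 0.36 log2 CPM for Ctsl, 1.10 ± 0.35 for Ctsh, 0.58 ± 0.18 for Ctsb, 0.57 ± 0.15 for Ctsz, 0.55 ± 0.16 for Ctss and 0.35 ± 0.22 for Ctsc. It was −0.01 ± 0.18 for Ctsa, −0.01 ± 0.11 for Ctsd and −0.20 ± 0.14 for Ctsw. Differences between these slopes were not tested.

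No WT and cKO library shared a myeloid sum (304 to 335 CPM against 421 to 751 CPM). A genotype difference at equal sum is thus extrapolated along the fitted slope and cannot separate genotype from myeloid RNA. So extrapolated, the genotype difference was 0.55 ± 0.11 for Ctsd and 0.58 ± 0.14 for Ctsw, as large as without that term. For Ctss it was −0.03 ± 0.16, for Ctsz −0.07 ± 0.15, for Ctsh −0.21 ± 0.35 and for Ctsl −0.67 ± 0.37. For Ctsb it was −0.50 ± 0.17, against −0.00 ± 0.12 without the term, for Ctsc −0.15 ± 0.22 and for Ctsa 0.03 ± 0.18. None of these passed in that fit (edgeR adjusted p = 0.162 for Ctsd and 0.355 for Ctsw), in which 0 of 10125 genes did. Markers of NK and CD8 T cells, cells known to make cathepsin W, summed to 77.1 to 329 CPM in WT and 199 to 481 CPM in cKO libraries and overlapped. Most of that sum was Gzma, at 94.0 ± 95.2 CPM in WT (n = 4) and 237 ± 104 in cKO (n = 6). Klrd1, a receptor chain of NK cells and killer T cells, was at 27.5 ± 20.6 and 46.3 ± 8.59 CPM, and Cd8b1 at 19.2 ± 3.17 and 18.3 ± 1.99 CPM. The other 7 markers had group means of at most 3.85 CPM, among them Cd8a (0.778 and 0.895 CPM) and Ncr1 (0.135 and 0.221 CPM), and 0 of the 6 tested passed. Their part in the level of Ctsw was not tested.

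Of the genes that act with the cathepsins, Napsa, an aspartic protease related to cathepsin D, passed in this comparison. It was at 3.68 ± 0.83 CPM in WT (n = 4) and 10.3 ± 1.77 in cKO (n = 6), a log2 fold change of 1.48 ± 0.20 (edgeR adjusted p = 0.00696). The class II gene H2-Eb1 passed as well, at 12.7 ± 5.00 and 55.9 ± 20.3 CPM (2.14 ± 0.31, edgeR adjusted p = 0.0191). None of 36 tested lysosomal hydrolases and 26 lysosomal membrane genes did, and their median log2 fold changes were 0.06 and 0.00.

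The GR experiment compared CNS Th17 cells of WT and GR cKO origin. Here 0 of 9 cathepsins passed, and edgeR called 0 of 10597 genes, while 8.21% of genes had an unadjusted p under 0.05 and DESeq2 called 3. The groups overlapped for all 9 cathepsins, against 2.25% of all genes without overlap. Log2 fold changes ran from −0.09 ± 0.17 for Ctsw to 0.43 ± 0.35 for Ctsl, with 0.15 ± 0.15 for Ctsc, 0.30 ± 0.34 for Ctsd, 0.33 ± 0.25 for Ctss, 0.35 ± 0.26 for Ctsa, 0.36 ± 0.32 for Ctsb, 0.36 ± 0.23 for Ctsz and 0.39 ± 0.26 for Ctsh between them. The median was 0.35 over the 9 and −0.00 over all genes, and the smallest edgeR adjusted p was 0.615, for Ctsz. Without WT libraries 3 and 4, a choice made after seeing the data, the differences were −0.13 to 0.23.

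The spread within the genotypes was what set these libraries apart. Ctsd was at 3140, 2006, 853, 1136 and 2948 CPM in the WT libraries and 2261, 2052, 2836 and 2749 CPM in the cKO libraries. Ctss was at 2150, 1671, 911, 1251 and 2479 CPM in WT and 2009, 1875, 2345 and 2277 CPM in cKO. In both, WT library 3 was the lowest, followed by WT library 4 and then WT library 2, and each of these lay below every cKO library. The myeloid marker sum ran in the same way, with 8358, 5591, 3537, 4540 and 9007 CPM in WT and 7301, 6274, 9375 and 9234 CPM in cKO. The 9 cathepsin transcripts together made 3174 to 8905 CPM in WT and 6693 to 8808 CPM in cKO libraries.

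The cathepsins split into those that followed the myeloid sum and those that did not. With genotype in the fit, 7 of 9 had a slope past the threshold, all positive, against 18.8% of all genes in either direction and 7.62% positive. Per doubling of the sum, Ctsd rose by 1.32 ± 0.14 log2 CPM, Ctsl by 1.29 ± 0.19 and Ctsb by 1.24 ± 0.12 (edgeR adjusted p = 0.000399, 0.00135 and 0.000341). Ctsa rose by 0.96 ± 0.12, Ctsh by 0.94 ± 0.13, Ctss by 0.93 ± 0.10 and Ctsz by 0.86 ± 0.11, with edgeR adjusted p between 0.000401 and 0.00104. Ctsc (−0.07 ± 0.17, edgeR adjusted p = 0.813) and Ctsw (−0.30 ± 0.18, edgeR adjusted p = 0.28) did not pass. The markers and the cathepsins were measured in the same libraries, so a library's composition enters both sides of this relation.

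The slopes leaned on the libraries with the least myeloid RNA but did not rest on them alone. Without WT libraries 3 and 4, the slopes past the threshold were 0.64 to 0.86, in 6 of 9 cathepsins. Ctsd then had 0.86 ± 0.13 (edgeR adjusted p = 0.00988), and Ctsh, at 0.53 ± 0.15, no longer passed (0.0882). Leaving out each library in turn kept 7 of 9. The share of all genes past the threshold was not counted in these refits, so their counts of cathepsins stand without a background. At equal myeloid sum the genotype differences of the 9 lay between −0.13 for Ctsd and 0.18 for Ctsc. With the T cell marker sum in place of the myeloid sum, 0 of 9 had a slope past the threshold. That sum ran only from 16132 to 21561 CPM, and its slopes were imprecise, with 0.58 ± 1.23 for Ctsd and 0.42 ± 1.16 for Ctsb. Slopes as large as those on the myeloid sum could therefore go uncalled in this fit, and no conclusion is drawn from it.

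**Figure D5:**
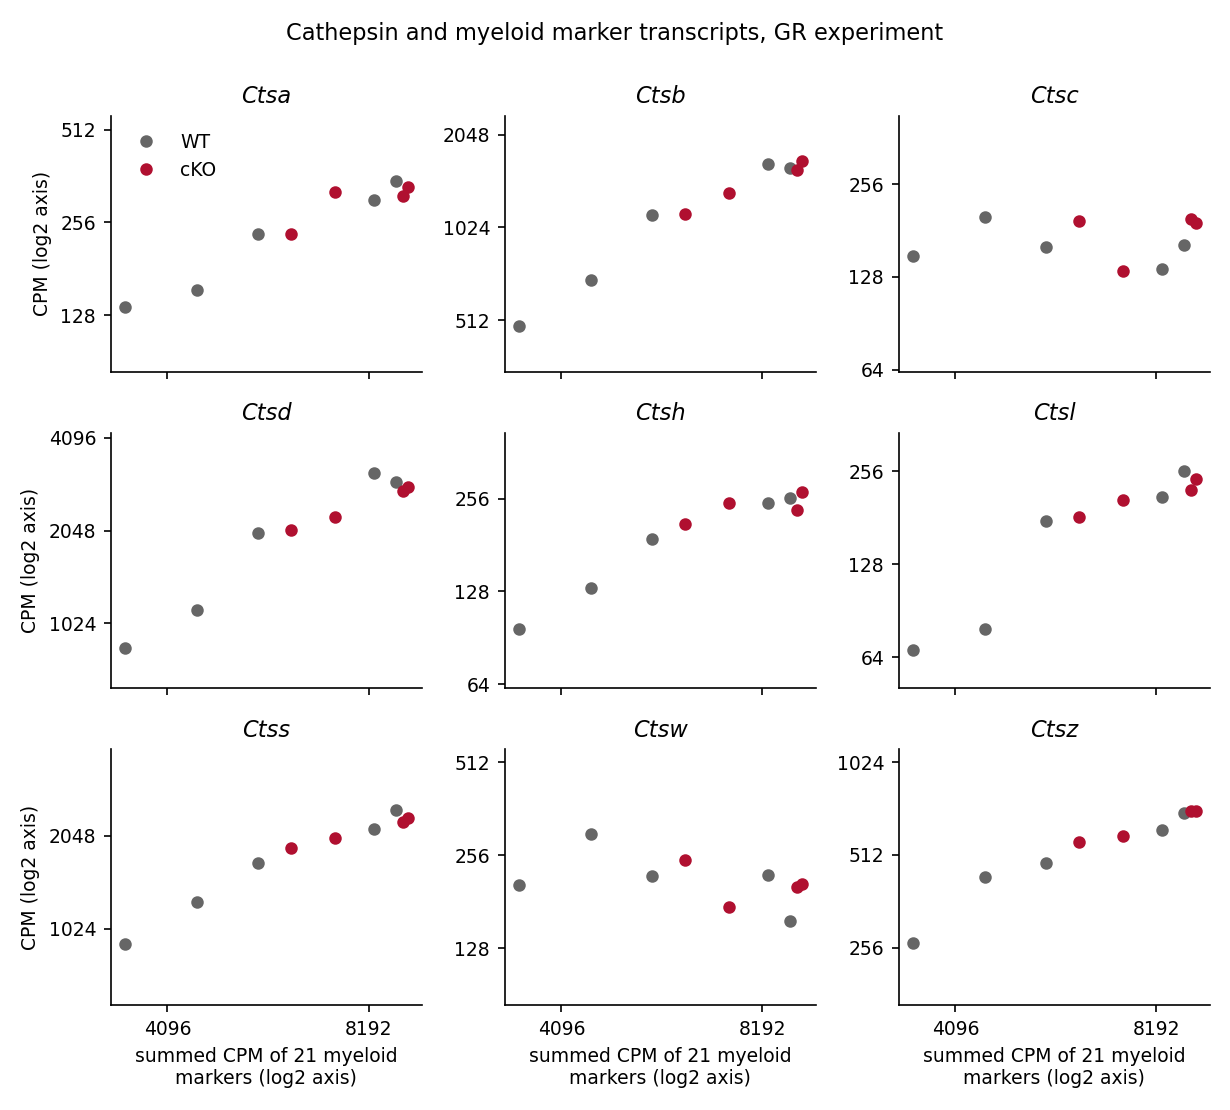
CPM of each cathepsin transcript against the summed CPM of 21 myeloid markers in the 9 libraries of the GR experiment (5 WT, 4 cKO), both on log2 axes, with the same number of doublings on each y axis. For 7 genes the points rise together from WT library 3 at 3537 CPM of markers to cKO library 3 at 9375, while Ctsc and Ctsw show no such rise.

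Ctsc was at 135, 161, 150, 201 and 163 CPM in WT and 134, 194, 192 and 197 CPM in cKO libraries. Ctsw was at 221, 219, 205, 300 and 157 CPM in WT and 174, 247, 206 and 202 CPM in cKO. For both the groups overlapped, and WT library 4, one of the 2 lowest for Ctsd, was the highest. As a description over the 9 libraries, which share their scaling and composition, the Pearson r of log2 CPM was 0.925 to 0.996 in the 21 pairs among the other 7 cathepsins. It was −0.13 to 0.19 between Ctsc and these, −0.617 to −0.333 between Ctsw and these, and 0.499 between Ctsc and Ctsw. Over the 12 culture libraries, whose myeloid marker sum was at most 10.9 CPM, the 28 pairs of 8 cathepsins had r of −0.432 to 0.826 with a median of 0.362. The highest there was that of Ctsc with Ctsw, unlike in the GR experiment.

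Lysosomal genes of other kinds showed slopes of the same sign in the GR experiment, in a fit where 18.8% of all genes passed and 7.62% with a positive slope. Of 37 hydrolases and cofactors 22 passed, all positive, among them Hexa, a hexosaminidase subunit (1.12 ± 0.10), Naglu, which degrades heparan sulfate (1.15 ± 0.12), and Psap (0.97 ± 0.11), with edgeR adjusted p of 0.000341 to 0.000535. Their median slope was 0.70, against 0.94 for the cathepsins and 0.02 for all genes. Of 26 membrane and proton pump genes 13 passed, all positive, including the lysosomal glycoproteins Cd68 (1.26 ± 0.12), Lamp1 (1.12 ± 0.12) and Lamp2 (0.75 ± 0.10) and the tetraspanin Cd63 (1.56 ± 0.18). Among regulators and sorting receptors, Flcn, Tfe3, Mitf and Sort1 passed, 4 of 10 tested. Legumain (Lgmn), an asparaginyl protease that processes cathepsins, had a slope of 0.73 ± 0.10 (edgeR adjusted p = 0.00113). Of the inhibitors, Cst3, which encodes cystatin C, and Cst7 had positive slopes (0.57 ± 0.15 and 0.72 ± 0.20), and Ctla2a, Serpinb9 and Serpinb6a negative ones (−0.68 ± 0.15, −0.71 ± 0.20 and −0.54 ± 0.17).

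The genes whose pattern was most like each cathepsin were found by Pearson r of log2 CPM, as a description. Over the 12 culture libraries and 4904 genes, Ctsw was closest to AA467197 (r = 0.976), Timp1 (0.964) and Lta (0.962). Ctsz was closest to Cyp11a1 (0.944), Tapbpl (0.938) and Cd5 (0.937). Ctsa was closest to Prnp (0.927), Fam49b (0.909) and Fth1 (0.870), and the first match of Ctsc was Polr2a (0.924), of Ctss Dcps (0.919), of Ctsb Dgat1 (0.899), of Ctsd Atxn7l1 (0.862) and of Ctsl Emsy (0.787). Cyp11a1 itself was at 51.2 ± 4.66 CPM in the control, 22.0 ± 2.96 with Dex, 61.4 ± 3.98 with TGF-β1 and 41.0 ± 2.64 with both (n = 3), in the same order of groups as Ctsz. Its difference with Dex was −1.21 ± 0.12 (edgeR adjusted p = 0.000171).

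Over the 9 libraries of the GR experiment and 4355 genes, Ctsb and Ctsd were each other's closest match (0.996). The tetraspanin Cd63 was among the 3 closest to Ctsb, Ctsd, Ctsh and Ctsl, Apoe and Axl were closest to Ctsa, Psap was closest to Ctss (0.988), and Fcer1g was the next after Ctss for Ctsz (0.981). Ctsw was closest to the integrin subunit Itgb2 (0.921) and Ctsc to the oxidase subunit Cyba (0.901).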

How the data were processed

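Messenger RNA was sequenced from about 2000 sorted cells per library in 31 libraries, with a modified SMART-Seq2 protocol and paired-end reads, per the labels' protocols. The deposited values are whole-number counts per gene in 3 tables, 1 per experiment, used here as deposited without normalisation by the authors. RSEM 1.3.3 and the build mm10 are named in the submitters' processing notes. The labels give every column its library, and 0 columns were left unmapped.

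Each table was fitted alone in R 4.3.3 with edgeR 4.0.16 (filterByExpr, TMM, robust quasi-likelihood F tests, Benjamini-Hochberg over all tested genes, threshold 0.05), and the 4 culture groups shared 1 fit. Levels are CPM with TMM scaling, mean ± SD, and effects are log2 fold changes ± SE. The SE is the log2 fold change divided by the square root of F. RPKM used the median length of coding transcripts in GENCODE M21. Alternatives were DESeq2 1.42.0, limma 3.58.1 voom with sample weights, other scaling, other low-count filters (none, or a mean count of 50), the replicate number as a block, fits without repeat-like predicted genes, the compared groups alone, marker sums as covariates and each library left out.

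The members and lists (15 lists, 202 entries) were chosen with earlier results of these data known. The rule named all 9 members in every comparison, some of which are given as ranges, and of other lists at most 4 genes per direction with the smallest p, of which 1 is not reported here. The genes most like a member were the 3 with the highest r among tested genes at a mean log2 CPM of 4 or more, leaving out predicted genes, RIKEN clones and receptor variable segments. Tests were checked on simulated counts of real genes: of 67 genes changed 1.5-fold, 41 were called in the Cyp11a1 comparison, 8 in the GR comparison, 32 for Dex and 26 for TGF-β1, and of 67 changed 2-fold, 62, 50, 60 and 55. False calls among the unchanged genes were 9, 9, 6 and 6. The changed genes were drawn from the more abundant ones only, at a level that Ctsl in culture did not reach.

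Replicate numbers did not pair libraries: the correlations of same-number deviations ran from −0.136 to −0.037 (Cyp11a1), −0.234 to 0.110 (GR) and −0.025 to 0.077 (culture). Repeat-like predicted genes held 9.09% to 54.6% of the counts of a library. Floors of 3 counts cover counting error only, and PCR duplicates carry no molecular identifier.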

Additional observations from a re-analysis of the deposited data

Results flagged for a closer look

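In the GR experiment, Ctsc in cKO library 1 stood at 134 CPM, far from the other 3 cKO libraries at 191.7 to 196.6 CPM. The summed CPM of NK and CD8 T cell markers in Cyp11a1 WT library 3 was 328.7, far above the other 3 WT libraries at 77.14 to 111.2. Both were flagged by the gap to the nearest library relative to the range of the group (Dixon's 95% limit). With 52 groups examined, chance flags about 1 in 20. In that WT library Ctsw was at 355 CPM, the highest of the WT group and below the lowest cKO library. No interaction of Dex and TGF-β1 among the 8 tested cathepsins was flagged.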

How the results depend on the processing

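Of 550 values under alternatives other than leaving out 1 library, 521 kept their side of the threshold and, but for 8 with a change of sign, their direction. A change of sign is among the 8 where the reported value was no larger than its SE and not past the threshold in either fit. For Cyp11a1, 1 cathepsin passed in the fit reported and 2 passed without a low-count filter and with DESeq2 (Ctsd and Ctsw), while 0 passed with the myeloid sum as a covariate, where log2 fold changes turned to −0.15 for Ctsc, −0.21 for Ctsh, −0.67 for Ctsl, −0.028 for Ctss and −0.074 for Ctsz. With the replicate number as a block, 0 cathepsins passed there and Ctsd had 0.56 (edgeR adjusted p = 0.106). Replicate numbers did not pair libraries, and the block changed no other count of cathepsins. In GR the covariate turned Ctsb to −0.059, Ctss to −0.000200, Ctsd to −0.13 and Ctsw to 0.05, and the fit without WT libraries 3 and 4 turned Ctsb to −0.028, Ctsl to −0.012, Ctsd to −0.13 and Ctsw to 0.06. With the T cell sum as the slope term 0 cathepsins passed, in a fit with wide errors. Slopes turned to −0.0093 ± 0.98 for Ctsa, −0.021 ± 0.92 for Ctss, 0.43 ± 0.69 for Ctsw and −0.16 ± 0.87 for Ctsz. With the compared groups alone, 0 passed for Dex against the control, 1 for both agents against the control and 1 against Dex. Without a filter 1 passed in each of the latter, and with DESeq2 1 for both agents against the control. Leaving out each library gave 0 to 1 for Dex, 1 to 2 for both agents against the control and 1 to 2 against Dex. The cause of these shifts was not tested.

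Over all genes, 18 passed for Cyp11a1, against 33 without a filter, 63 with DESeq2, 6 with limma voom, 1 with the block, 0 with the covariate and 9 to 22 without 1 library. For Dex 188 passed (78 to 129 without 1 library), for TGF-β1 341 (219 to 259), for both agents 646 (425 to 502), against Dex 271 (152 to 204) and against TGF-β1 55 (24 to 35, 94 with DESeq2, 22 with the groups alone). For GR 0 passed (3 with DESeq2, 1 without WT libraries 3 and 4), and for the interaction 0 (4 without a filter, 6 with DESeq2, 2 with the block). Depth limits Ctsh, Ctsl and Ctsw in culture, where a library held as few as 0, 21 and 8 counts.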
